A study of Oryza sativa with 12 samples.

Results

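The genes described here are 165 rice loci whose transcripts were strongly lower in nup1 anthers than in wild-type (WT) anthers at both developmental stages sampled, out of 1450 loci listed at both stages and 7087 listed at either. They were chosen by their measured values: for each stage the mean log2(FPKM + 1) of the WT libraries was subtracted from that of the nup1 libraries, and a locus was kept when this log2 difference was -2 or less at stage 10 and again at stage 11, which is a 4-fold lower level on that scale. FPKM is a fragment count scaled by transcript length and library size, so levels can be compared between genes. The 1 added to each value keeps very low levels from setting a fold and understates the change of low genes. In all, 169 loci met both thresholds, and the rule left out 4 of them (LOC_Os01g70440, LOC_Os01g38670, LOC_Os04g33720 and LOC_Os01g05650). Because this nup1 to WT difference chose the members, it is given below as a description with no test.

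Whole anthers were sampled in 4 groups of 3 biological replicates: nup1 mutant and WT at stage 10, and nup1 mutant and WT at stage 11. The labels give neither the allele nor the mutated locus of nup1, nor the rice cultivar, so the mutation itself was not checked. Both tables hold loci that the authors had called different between the genotypes, so a locus outside them is not analysed here. In whole anthers, fewer cells of a type and less RNA per cell cannot be told apart.

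The stages sampled cover late microspore development and its passage into pollen. During this time the tapetum, the innermost cell layer of the anther wall, feeds the developing microspores and supplies lipid and protein for the pollen wall. In rice it sheds small sporopollenin-coated particles, the Ubisch bodies, from its inner face, and it then degenerates. The tables give locus identifiers without gene names. No member's identifier was found in the reference gene table, so nearly all members can be described only by locus. The single member with a symbol is OsC6 (LOC_Os11g37280), a tapetal lipid transfer protein needed for Ubisch body and pollen wall formation. That pairing was made from recall, and the symbol lies on the same chromosome, 11, in the reference table. RAFTIN1 (LOC_Os08g38810), a Ubisch body protein whose symbol was checked in the same way and which is no member, averaged 377 FPKM in nup1 and 2231 FPKM in WT at stage 10, so a tapetal transcript was abundant in these samples.

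A pair of libraries stood apart over the members. At stage 10, WT replicate 2 was the highest of the 3 WT libraries for 159 of 165 members (96.4%), against 89.5% of the 561 other loci listed as lower at both stages and 56.3% of all loci in both tables. Its level was a median 1.87 times the mean of WT replicates 1 and 3 over the members. The same median was 1.56 over the 561 other loci and 1.25 over all loci in both tables. The ratio was more than 2 for 70 members and more than 4 for 10, and these counts were not made over the other loci. At stage 11, nup1 replicate 3 was the lowest of the 3 nup1 libraries for 104 members (63.0%), against 41.7% of the other loci lower at both stages. Of the 165 members, 24 (14.5%) were listed at exactly 0 in that library, against 184 of all 5084 listed loci (3.62%). The rule chose loci low in nup1, so a larger share of members at 0 follows in part from the choice. In nup1 replicates 1 and 2 of that stage, 1 and 6 members were at 0. Leaving out WT replicate 2 kept 138 of the 165 members within both thresholds and put the members' median log2 difference at stage 10 at -2.75, while leaving out nup1 replicate 3 kept 157 and put the median at stage 11 at -3.49. The rule used both libraries, and their part in the choice of members was not otherwise tested.

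Over the members, the median of the mean levels at stage 10 was 2.80 FPKM in nup1 and 42.9 FPKM in WT. At stage 11 it was 3.14 FPKM in nup1 and 57.2 FPKM in WT. The log2 difference ranged from -9.24 to -2.0002 with a median of -3.03 at stage 10, and from -10.26 to -2.02 with a median of -3.70 at stage 11. The median over all listed loci was 0.84 at stage 10 and -0.96 at stage 11. A difference of -2 or less was found in 10.2% of all loci listed at stage 10 (352 loci) and 13.6% of those listed at stage 11 (692 loci). The 169 loci meeting both thresholds were 48.0% of the first of these lists and 24.4% of the second. Every nup1 library was below every WT library for all 165 members at stage 10, against 42% of all loci listed at that stage. All 165 members were likewise separated at stage 11, against 57.6% of listed loci. Since the rule used these contrasts, the separation follows in large part from the choice, and nothing is read from it.

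**Figure D1:**
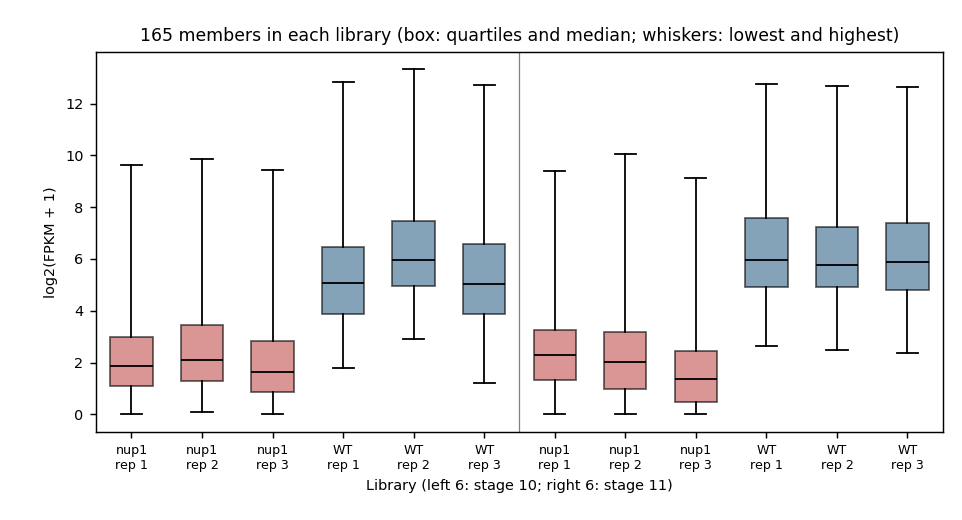
Levels of the 165 members in each library, as log2(FPKM + 1), with boxes for the quartiles and median and whiskers to the lowest and highest member. Within each stage the 3 nup1 libraries lie far below the 3 WT libraries, WT replicate 2 is the highest box at stage 10, and nup1 replicate 3 is the lowest at stage 11.

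The members made up a large share of the transcript abundance in the deposited tables of WT. At stage 10 their FPKM summed to 2429, 2972 and 2054 in nup1 replicates 1, 2 and 3, against 33360, 59512 and 35366 in WT replicates 1, 2 and 3. That was 1.96% ± 0.48 of the summed FPKM of all listed loci in nup1 and 26.5% ± 5.3 in WT (SD, n = 3 each), and 23.4% in WT without replicate 2. The sums at stage 11 were 2778, 2738 and 1467 in the nup1 replicates, against 45219, 40384 and 41494 in the WT replicates, or 1.68% ± 0.45 in nup1 and 19.5% ± 0.4 in WT. A few loci carried much of this abundance: 3 members held 47.5% of the members' WT sum at stage 10 and 37.1% at stage 11. These shares are of listed loci only, since FPKM of other loci was not used here. The 165 members were among 3453 loci listed at stage 10 and 5084 at stage 11, so the shares at the 2 stages have unlike bases. The rule chose loci lower in nup1 than in WT, so the gap between the genotypes follows in large part from the choice.

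**Figure D2:**
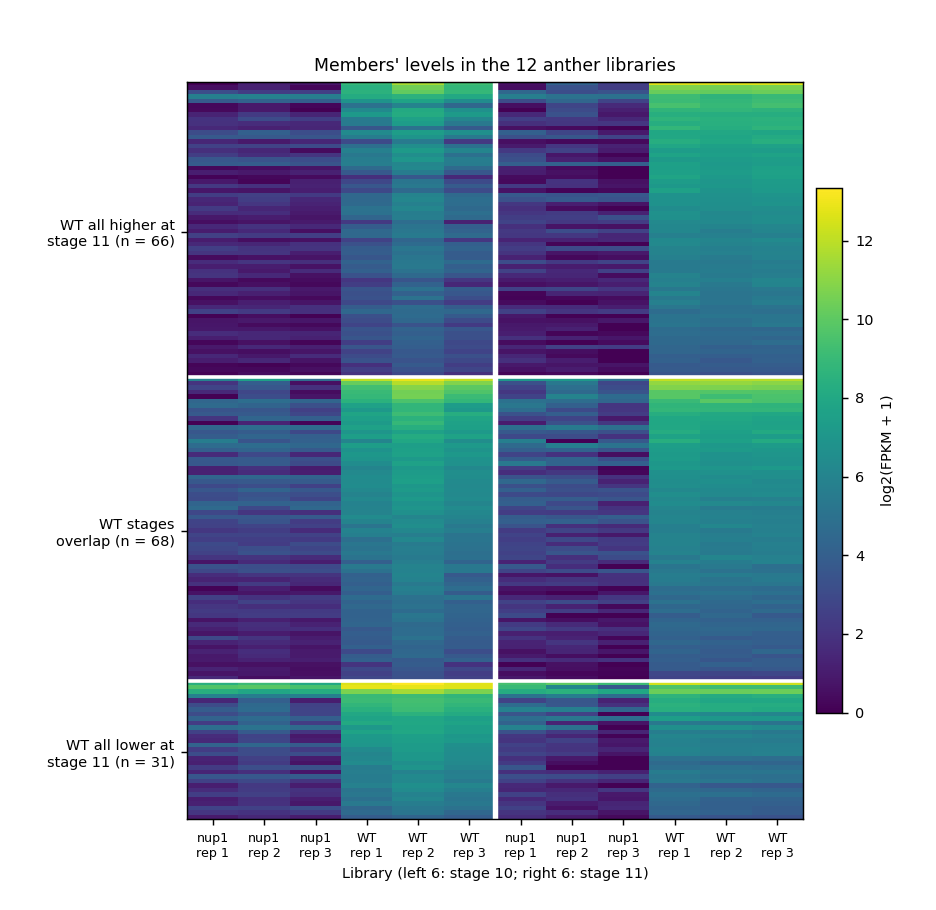
Level of each of the 165 members (rows) in the 12 libraries (columns), as log2(FPKM + 1). Rows are grouped by whether the 3 WT libraries at stage 11 all lay above (66 members), overlapped (68) or all lay below (31) the 3 WT libraries at stage 10; both nup1 blocks are mostly dark, and the bright rows are the few members of very high WT level.

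The most abundant member in WT at stage 10 was LOC_Os01g41140. It had 335, 536 and 265 FPKM in the nup1 replicates, against 6332, 10274 and 6797 FPKM in the WT replicates at that stage. At stage 11 it had 666, 1051 and 556 FPKM in nup1, against 5430, 4937 and 5060 FPKM in WT. The genotypes were thus far apart at both stages, yet the mean of 758 FPKM in nup1 at stage 11 was the highest nup1 mean of the 165 members at that stage. The log2 difference was -4.39 ± 0.37 (SE, n = 3 each) at stage 10 and -2.81 ± 0.28 at stage 11.

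LOC_Os01g41140 was 1 of 3 members with neighbouring locus numbers on chromosome 1, and this was the only run of 3 or more neighbours among the members. LOC_Os01g41170 had 58.9, 189 and 25.5 FPKM in nup1 at stage 10, against 4251, 7653 and 4578 FPKM in WT. At stage 11 the values were 136, 139 and 31.2 FPKM in nup1 and 4429, 3608 and 3817 FPKM in WT, so this locus was also very abundant in WT but held a much lower level in nup1 than LOC_Os01g41140, with log2 differences of -6.31 ± 0.87 and -5.53 ± 0.71. LOC_Os01g41180 was less abundant, at 7.67, 12.5 and 5.55 FPKM in nup1 and 258, 375 and 283 FPKM in WT at stage 10. Its stage 11 values were 10.4, 5.22 and 0 FPKM in nup1, against 88.9, 73.6 and 65.9 FPKM in WT. In WT the 3 loci differed with stage: LOC_Os01g41140 and LOC_Os01g41180 were lower at stage 11 in every library, and the libraries of LOC_Os01g41170 overlapped between stages. Near-identical copies can share reads, and the deposited values do not show whether that happened here.

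OsC6, the lipid transfer protein, was the second most abundant member in WT at stage 10. It had 794, 934 and 691 FPKM in the nup1 replicates, against 7243, 7194 and 6535 FPKM in the WT replicates, with little spread in either genotype and no excess in WT replicate 2. In stage 11 anthers the nup1 replicates held 496, 70.1 and 11.7 FPKM, and the WT replicates 767, 555 and 569 FPKM. The WT level was therefore far lower at stage 11 than at stage 10, and the nup1 libraries no longer resembled each other, replicate 1 lying close to WT. The log2 difference was -3.12 ± 0.13 at stage 10 and -3.03 ± 1.54 at stage 11, where it was -4.38 without nup1 replicate 1 and -1.73, outside the threshold, without nup1 replicate 3. As a ratio of mean FPKM, WT exceeded nup1 by 8.67-fold at stage 10 and 3.27-fold at stage 11.

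LOC_Os05g02520, LOC_Os01g41140 and OsC6 were the members that averaged over 100 FPKM in nup1 at both stages. At stage 10 LOC_Os05g02520 had 328, 232 and 306 FPKM in nup1 and 1645, 2908 and 1653 FPKM in WT. At stage 11 the values were 302, 363 and 247 FPKM in nup1 and 1271, 1232 and 1293 FPKM in WT. Its nup1 level was thus close to constant between the stages, and its log2 differences were -2.80 ± 0.31 and -2.07 ± 0.16. Without nup1 replicate 3 the difference at stage 11 was -1.93, outside the threshold.

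**Figure D3:**
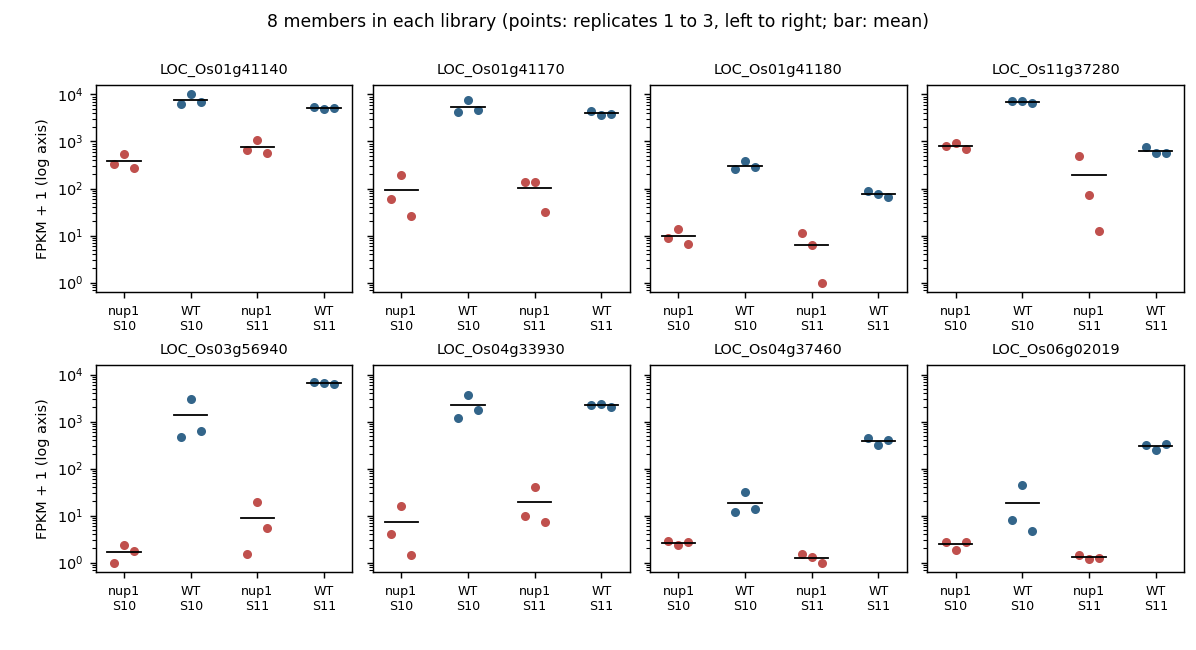
FPKM + 1 on a log axis for 8 members in each library at stage 10 (S10) and stage 11 (S11), with points for replicates 1 to 3 from left to right and a bar at the mean. The top row holds the chromosome 1 run and OsC6 (LOC_Os11g37280), whose nup1 replicates spread widely at stage 11; the bottom row holds LOC_Os03g56940 and LOC_Os04g33930, low in nup1 and abundant in WT at both stages, and LOC_Os04g37460 and LOC_Os06g02019, whose WT levels were far higher at stage 11.

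At the other extreme were members that were abundant in WT and near the lower end of the scale in nup1. At stage 10, 40 members had a log2 difference of -4 or less, and at stage 11, 69 did. At both stages 27 did so, and 7 reached -6 or less at both. The rule used this difference, and the shares of all listed loci at -4 and -6 were not counted, so nothing is read from these counts. The lowest sum of the 2 differences belonged to LOC_Os03g56940. It had 0, 1.34 and 0.731 FPKM in nup1 at stage 10, against 468, 3084 and 614 FPKM in WT. At stage 11 it had 0.493, 18.3 and 4.46 FPKM in nup1 and 6836, 6596 and 6441 FPKM in WT, the highest WT mean of any member at that stage (6624 ± 199 FPKM, SD, n = 3). WT replicate 2 at stage 10 was 5.70 times the mean of the other WT replicates for this locus, and the log2 difference there was -9.24 ± 0.92 with it and -8.40 without it.

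LOC_Os01g74480 followed, with 0.444, 1.41 and 0.176 FPKM in nup1 and 344, 1405 and 446 FPKM in WT at stage 10. Its stage 11 values were 0.403, 9.23 and 4.29 FPKM in nup1, against 1762, 1434 and 1623 FPKM in WT. The log2 differences were -8.55 ± 0.70 and -8.56 ± 0.85, equal within their errors. LOC_Os04g33930 had 3.03, 14.9 and 0.459 FPKM in nup1 at stage 10, against 1210, 3634 and 1786 FPKM in WT, and LOC_Os02g32080 had 5.72, 11.3 and 2.65 FPKM in nup1, against 622, 1927 and 987 FPKM in WT. At stage 11 LOC_Os04g33930 averaged 18.3 ± 18.7 FPKM in nup1 and 2219 ± 176 FPKM in WT. LOC_Os02g32080 averaged 13.9 ± 12.6 FPKM in nup1 and 1672 ± 113 FPKM in WT at that stage. Both loci were therefore lower in nup1 by more than 100-fold in mean FPKM at each stage.

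The remaining loci among the 8 with the lowest sums had the same form. LOC_Os05g35690 averaged 2.78 ± 2.93 FPKM in nup1 and 926 ± 459 FPKM in WT at stage 10, and 11.8 ± 9.5 FPKM in nup1 and 874 ± 61 FPKM in WT at stage 11. LOC_Os01g42110 had 0.251, 0.872 and 0 FPKM in nup1 and 79.7, 268 and 103 FPKM in WT at stage 10, and 0, 7.29 and 1.22 FPKM in nup1 and 424, 442 and 387 FPKM in WT at stage 11. It was listed at 0 in 1 nup1 library of each stage. LOC_Os02g04210 had 0, 7.73 and 0.709 FPKM in nup1 and 461, 1503 and 534 FPKM in WT at stage 10, and 5.48, 61.2 and 24.7 FPKM in nup1 and 936, 573 and 742 FPKM in WT at stage 11. LOC_Os07g30640 averaged 5.67 ± 2.00 FPKM in nup1 and 653 ± 403 FPKM in WT at stage 10, and 12.9 ± 7.1 FPKM in nup1 and 1221 ± 52 FPKM in WT at stage 11. These 8 loci also ranked their replicates alike. WT replicate 2 was the highest at stage 10 for 8 of 8, and nup1 replicate 2 was the highest at both stages for all but LOC_Os07g30640, where nup1 replicate 1 was. Over all members the same libraries were the highest for 159 (WT, stage 10), 99 (nup1, stage 10) and 59 (nup1, stage 11) of 165. In nup1 the SD of these loci was often about as large as the mean, so their folds are imprecise although the genotypes are far apart.

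**Figure D4:**
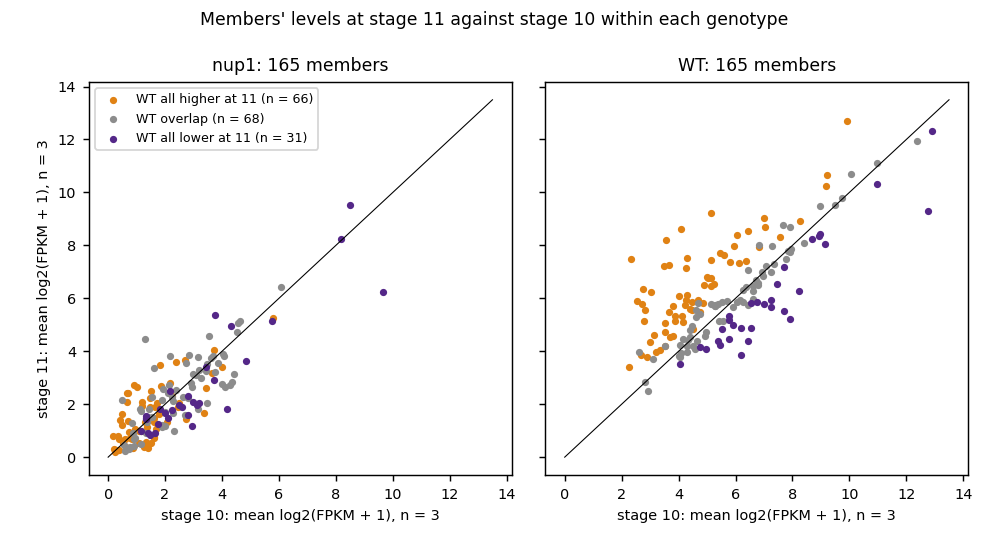
Mean log2(FPKM + 1) of 3 libraries at stage 11 against stage 10 for each member, in nup1 (left) and WT (right), coloured by whether the WT libraries at stage 11 all lay above, overlapped or all lay below those at stage 10; the line marks equal levels. WT members lie on both sides of the line, up to 5.16 above it on this scale for LOC_Os10g22450, while nup1 members gather at low levels.

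The rule set no condition on the change between stages within a genotype, although it used the levels behind it. The labels and headers do not state whether both tables were normalized together, so the levels stand side by side with no test. In WT, all 3 libraries at stage 11 were above all 3 at stage 10 for 66 members (40.0%), below them for 31 (18.8%), and overlapping for 68. Over all loci in both tables the shares were 30.1% above and 24.8% below, and over the 561 other loci lower at both stages they were 46.9% above and 12.5% below. In nup1, 20 members (12.1%) were higher at stage 11 and 15 (9.09%) lower, and the libraries of the 2 stages overlapped for 130 (78.8%). Over all loci in both tables the nup1 shares were 16.1% higher, 30.4% lower and 53.5% overlapping, and over the other 561 loci they were 19.4% higher, 25.3% lower and 55.3% overlapping. The rule chose loci low in nup1 at both stages, where the spread between replicates was large in proportion to the level, so the overlap in nup1 is not independent of the rule. Without WT replicate 2 of stage 10, the WT count above was 99 and that below 32. Without nup1 replicate 3 of stage 11, the nup1 counts were 33 higher and 22 lower, and the members' median nup1 change from stage 10 to 11 was 0.15, against -0.09 with it. The WT median change over the members was 0.46, and 0.68 without WT replicate 2.

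The 66 members whose WT level was higher at stage 11 had median levels of 1.47 FPKM in nup1 and 21.1 FPKM in WT at stage 10, and 1.68 FPKM in nup1 and 71.5 FPKM in WT at stage 11. The 31 members whose WT level was lower at stage 11 had medians of 6.08 FPKM in nup1 and 111 FPKM in WT at stage 10, and 3.15 FPKM in nup1 and 44.7 FPKM in WT at stage 11. Their median log2 differences moved apart accordingly: -2.67 at stage 10 and -4.75 at stage 11 in the group of 66, and -4.05 and -3.12 in the group of 31. The groups were formed by the WT levels that enter these differences, so this follows in large part from the grouping. For all 66 members of the larger group WT replicate 2 was the highest WT library at stage 10, by a median 2.46 times the mean of the other WT replicates, against 1.47 times in the group of 31.

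Of the 165 members, 108 (65.5%) had a more negative log2 difference at stage 11 than at stage 10, against 73.3% of the 561 other loci listed as lower at both stages. Any offset between the scales of the libraries moves this count. Median centring, which sets each library of a table to the same median over its called loci, shifted every locus alike, by -0.20 at stage 10 and 0.45 at stage 11. Members chosen anew after centring numbered 167, of which 86 were more negative at stage 11. Of the 165 members, 71 (43.0%) were so after centring, as were 39.2% of the other loci. These shifts rest on lists of called loci and say nothing particular of the members. On the deposited scale the difference changed by no more than 1 on the log2 scale for 89 members, was more negative by over 1 at stage 11 for 58, and was more negative by over 1 at stage 10 for 18. All 5 members with the largest shift toward stage 11 were low in WT at stage 10 and abundant in WT at stage 11.

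LOC_Os04g37460 showed the largest such shift. It had 1.85, 1.34 and 1.71 FPKM in nup1 at stage 10, against 10.6, 30.3 and 12.6 FPKM in WT. The stage 11 values were 0.521, 0.303 and 0 FPKM in nup1 and 452, 316 and 406 FPKM in WT. The log2 difference was -2.70 ± 0.45 at stage 10 and -8.27 ± 0.23 at stage 11, a shift of -5.57 ± 0.51 (SE). LOC_Os06g02019 had 1.69, 0.890 and 1.74 FPKM in nup1 and 6.90, 42.7 and 3.69 FPKM in WT at stage 10, so its place among the members rested on WT replicate 2, without which the log2 difference there was -1.34. At stage 11 it had 0.443, 0.215 and 0.243 FPKM in nup1, against 318, 247 and 330.3 FPKM in WT. LOC_Os10g22450 likewise had 0.0939, 0.226 and 0.303 FPKM in nup1 and 2.45, 11.6 and 1.89 FPKM in WT at stage 10, and a difference of -1.39 there without WT replicate 2. Its levels at stage 11 were 0.321, 0.337 and 0 FPKM in nup1 and 218, 140.1 and 187 FPKM in WT.

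The other loci of this kind were LOC_Os03g12180 and LOC_Os05g07720. LOC_Os03g12180 averaged 0.848 ± 0.275 FPKM in nup1 and 12.1 ± 9.2 FPKM in WT at stage 10, and 0.293 ± 0.257 FPKM in nup1 and 150.4 ± 42.1 FPKM in WT at stage 11. LOC_Os05g07720 had 1.17, 0.856 and 1.35 FPKM in nup1 and 12.3, 47.3 and 11.1 FPKM in WT at stage 10, and 1.11, 0.496 and 0 FPKM in nup1 and 191, 165 and 197 FPKM in WT at stage 11. In each of these 5 loci nup1 stayed under 2 FPKM in every library of both stages.

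The 5 members shifted most toward stage 10 differed among themselves in form. LOC_Os02g04210, described above, and LOC_Os07g40740 and LOC_Os05g35690 had more transcript in nup1 at stage 11 on average, with WT libraries that overlapped between stages. LOC_Os07g40740 had 0, 1.51 and 0.0957 FPKM in nup1 at stage 10, against 154, 474 and 195 FPKM in WT. At stage 11 the values were 1.02, 8.82 and 3.44 FPKM in nup1 and 241, 217 and 195 FPKM in WT. LOC_Os04g55660 had 13.8, 23.9 and 5.603 FPKM in nup1 at stage 10, against 346, 572 and 349 FPKM in WT, and averaged 44.3 ± 21.5 FPKM in nup1 and 302 ± 32 FPKM in WT at stage 11, where every WT library was below those of stage 10. LOC_Os06g12320 had 4.185, 17.2 and 4.197 FPKM in nup1 at stage 10, against 276, 241 and 212 FPKM in WT. Its stage 11 values were 17.5, 1.55 and 0.619 FPKM in nup1, against 39.3, 36.3 and 32.2 FPKM in WT, so here the WT level was lower at stage 11 while the nup1 libraries of both stages overlapped. The shifts for these 5 loci ran from 1.75 ± 1.06 for LOC_Os05g35690 to 3.11 ± 1.45 for LOC_Os02g04210 and were wide in their errors.

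**Figure D5:**
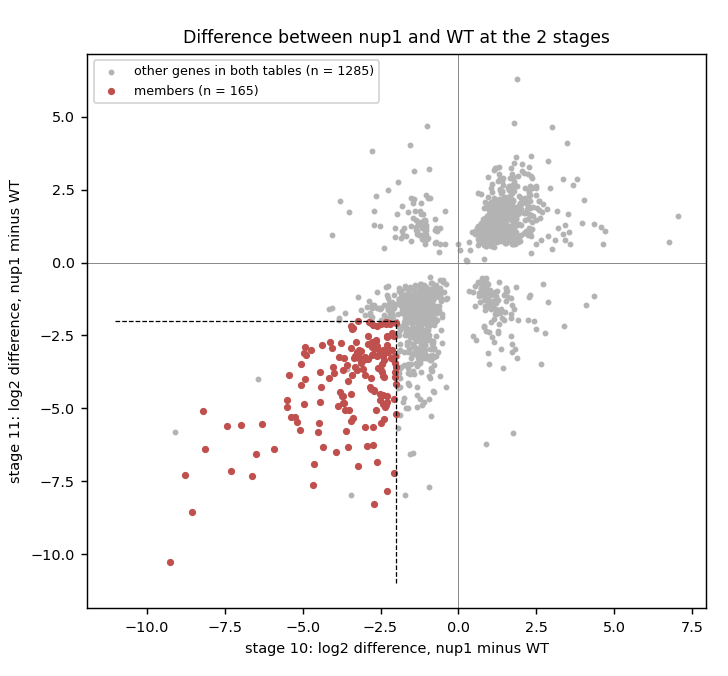
Log2 difference (nup1 minus WT) at stage 11 against stage 10 for the 1450 loci listed at both stages, with the 165 members in red, the other 1285 loci in grey and dashed lines at the thresholds of -2. The members fill the lower left corner, with LOC_Os03g56940 at its far end; the 4 loci left out by the rule are grey points inside it.

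The 2 remaining loci among the most abundant in WT were LOC_Os06g42860 and LOC_Os02g15860. LOC_Os06g42860 had 1.73, 15.4 and 1.09 FPKM in nup1 at stage 10, against 540, 658 and 521 FPKM in WT, and averaged 5.85 ± 4.77 FPKM in nup1 and 268 ± 45 FPKM in WT at stage 11. LOC_Os02g15860 held an even residual level: 20.1, 27.3 and 19.7 FPKM in nup1 at stage 10, against 366, 738 and 456 FPKM in WT, and 30.2, 26.4 and 19.95 FPKM in nup1 at stage 11, against 520.4, 955 and 729.5 FPKM in WT. Its log2 differences were -4.43 ± 0.33 and -4.77 ± 0.30.

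The members nearest to the threshold at stage 10 were LOC_Os05g15300 (-2.0002), LOC_Os10g32020 (-2.003) and LOC_Os06g40580 (-2.01), and each of them was outside it without WT replicate 2. The nearest loci outside at that stage were LOC_Os03g51200 (-1.9998), LOC_Os05g31910 (-1.97) and LOC_Os01g72190 (-1.96). At stage 11 the nearest members were LOC_Os05g48300 (-2.02), LOC_Os07g09190 (-2.03) and LOC_Os02g58150 (-2.04), and the nearest loci outside were LOC_Os05g51570 (-1.99), LOC_Os10g39150 (-1.98) and LOC_Os01g71440 (-1.98). Each of these 3 members was also outside the threshold without 1 library: LOC_Os05g48300 at -1.79 without nup1 replicate 3, LOC_Os07g09190 at -1.93 without nup1 replicate 2 and LOC_Os02g58150 at -1.86 without nup1 replicate 1. LOC_Os05g15300, for instance, had 18.4, 18.1 and 18.3 FPKM in nup1 at stage 10, against 60.0, 112 and 65.3 FPKM in WT. Its stage 11 values were 16.3, 6.57 and 1.27 FPKM in nup1, against 87.4, 76.7 and 71.5 FPKM in WT.

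Most members had a low mean level in nup1. The nup1 mean was under 10 FPKM at both stages for 121 members and under 1 FPKM at both for 23, while 38 members averaged 100 FPKM or more in WT at both stages. At least 1 nup1 library listed the locus at exactly 0 for 4 members at stage 10 and 29 at stage 11, and 0 members were so listed in WT. The rule chose loci low in nup1 and higher in WT, so these counts follow in large part from the choice. The shares of all listed loci under 1 or 10 FPKM in nup1, or at 100 FPKM or more in WT, were not counted. Nothing particular to the members is therefore read from those counts. Of all 3453 loci listed at stage 10, 7, 1 and 2 were at 0 in the nup1 replicates and 6, 53 and 3 in the WT replicates. Of all 5084 listed at stage 11, 20, 96 and 184 were at 0 in nup1 and 0, 4 and 2 in WT. The median coefficient of variation over the members was 35.2% in nup1 and 39.1% in WT at stage 10, and 65.1% in nup1 and 10.9% in WT at stage 11. Over the 561 other loci lower at both stages it was 20.3% in nup1 and 30.0% in WT at stage 10, and 37.1% in nup1 and 13.1% in WT at stage 11.

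By their identifiers the members lay on all 12 chromosomes. Chromosome 1 held 25 members (15.2%, against 15.3% of all loci in both tables), chromosome 6 held 21 (12.7%, against 8.28%), chromosome 4 held 19 (11.5%, against 8.83%) and chromosome 7 held 17 (10.3%, against 7.17%). Chromosome 3 held 14 (8.48%, against 11.5%). Locus numbers rise by about 10 from gene to gene, and 23 members (13.9%) had another member within 50 on the same chromosome, in 11 groups. The same share was 16.2% among the 561 other loci lower at both stages and 30.6% among all 1450 loci in both tables. It rises with the number of loci in a set, so these shares cannot be compared between sets of unlike size. Neighbours did not always share their course in WT. LOC_Os07g07410 and LOC_Os07g07420 were both higher at stage 11 in every WT library, averaging 309 and 138 FPKM at stage 10 and 491 and 522 FPKM at stage 11. LOC_Os11g05760 and LOC_Os11g05780 went opposite ways in WT, averaging 81.9 and 30.8 FPKM at stage 10 and 334 and 16.02 FPKM at stage 11. These 4 loci were named after their values were seen.

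The members were 2.33% of all loci in the tables, and counts in the short gene lists are read against that share. Of 8 tapetum regulators whose symbols were checked by chromosome, 0 were members, and at stage 10 the authors' deposited table listed 1 as higher, 1 as lower and left 6 unlisted, while at stage 11 it listed 4 as lower and left 4 unlisted. EAT1 (LOC_Os04g51070), a bHLH factor that promotes tapetal cell death, had a log2 difference of -3.35 at stage 11 but was not listed at stage 10. TDL1A (LOC_Os12g28750), a small secreted protein that acts with the receptor kinase MSP1 in early anther cell fate, had differences of -0.71 and -3.22. Of 15 loci listed for the pollen wall and anther cuticle, 4 had a checked symbol, and of these OsC6 was a member. RTS was left out by the rule, RAFTIN1 missed the threshold at stage 11 (-1.56), and CYP703A3, a fatty acid hydroxylase for sporopollenin, was higher in nup1 at stage 10 (4.08) and lower at stage 11 (-1.47). The other 11 loci, whose symbols could not be checked and are not used as names, held 0 members. At stage 10 the authors' deposited table listed 8 of them as higher and 1 as lower, so the checked genes, 3 of 4 lower, do not stand for the whole list. Both checked genes of late pollen and sugar supply were outside the members, INV4 (LOC_Os04g33720) being left out by the rule and HXK5 not listed at stage 10. Of 5 checked meiosis and germ cell genes and 4 genes of other floral organs, 0 were members and 0 were listed at stage 10. At stage 11 the authors' deposited table listed 1 of the meiosis and germ cell genes as higher and 2 as lower, and 1 gene of other floral organs, MADS13, as lower (-2.66). No photosynthesis gene of the lists had a checked symbol.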

How the data were processed

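Poly(A) RNA of 12 rice anther samples was sequenced, in 4 groups of 3. Per the series design text, the authors trimmed 150-base read pairs, aligned them using HISAT2 against the MSU rice genome, release 7, then ran Cufflinks to quantify expression and call differences (FDR under 0.01, fold over 2). The sources used here give no versions. The authors deposited FPKM values, 1 column per library, in 1 table per stage, holding called loci only. Fragment depth is unknown: FPKM as low as 1.39e-315 shows that low values are not steps of whole reads.

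Here, log2(FPKM + 1) was averaged per group and differenced (nup1 minus WT) with no filter, in Python 3.11.15 with pandas 2.3.3. No test was made, because the rule had used the same contrasts. The code of the selecting step was run on simulated data with a known set of lower loci. That run checks the code alone and says nothing of how well the rule chose among the loci measured here. SD is over 3 libraries, and SE combines both groups. Alternatives were other pseudocounts, thresholds and scalings, a filter on low values, and leaving out each library. Neighbours were members within 50 locus numbers. The members and lists were chosen with earlier results of these data known. Named loci were the 12 highest in WT at each stage, the 8 lowest sums of both differences, the 5 largest shifts each way, the 3 nearest to each threshold on either side, runs of 3 neighbours and list members. RefSeq annotation (assembly ASM3414082v1) holds none of these identifiers. Of 41 list genes, 23 had their symbol on the same chromosome there and the others were not used. Protein and promoter comparisons were not made.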

Additional observations from a re-analysis of the deposited data

How the results depend on the processing

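The number of members depended most on the pseudocount and the threshold. It was 86 with a pseudocount of 5 FPKM, all of them among the 165, and those 86 were separated at both stages. It was 245 with 0.1 FPKM, 279 at a threshold of -1.5 and 75 at -3. Leaving out 1 library gave 138 to 185 members (138 to 185 of them separated at both stages), the lowest without WT replicate 2 of stage 10. The filter at a mean of 1 FPKM and the authors' direction kept all 165. Neither checks the choice, since the rule already requires a lower nup1 level and a higher WT level. The lowest WT mean of a member was 4.08 FPKM at stage 10 and 4.69 FPKM at stage 11. Median centring gave 167 members (150 shared with the 165, and 166 separated at both stages) and the ratio of mean FPKM gave 171 (161 shared). With 5 FPKM the median difference at stage 11 was -3.13, the count more negative at stage 11 was 47 of 86 and the median WT change between stages was 0.036. With 0.1 FPKM 173 of 245 were more negative at stage 11. Each of these follows in part from the different members, and the cause was not otherwise tested.

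Members were chosen anew each time 1 library was left out. The median difference was then -3.11 to -2.97 at stage 10 and -4.06 to -3.52 at stage 11. The count more negative at stage 11 was 97 (of 160 members, without nup1 replicate 3 of stage 11) to 119 (of 185, without WT replicate 3 of stage 10). It was 98 of 138 without WT replicate 2 of stage 10, so the count moves with the number of members. The median WT change between stages was 0.37 to 0.64. Choosing anew at the same threshold limits such movement. Over the fixed 165 members, an alternative chosen after seeing the data, several values left these ranges. Without WT replicate 2 of stage 10, the median difference there was -2.75, the count 125 and the WT change 0.68. Without nup1 replicate 3 of stage 11, the median difference there was -3.49 and the count 96. The median nup1 change between stages had no stable sign: it was -0.09 as reported, -0.24 to 0.16 with 1 library left out (0.0014 without nup1 replicate 2 of stage 10 and 0.16 without nup1 replicate 3 of stage 11), 0.014 with 5 FPKM and, over the fixed 165 members in an alternative chosen after seeing the data, 0.15 without nup1 replicate 3 of stage 11 and -0.093 without WT replicate 2 of stage 10. Of 986 differences of named members under alternatives, 0 changed sign and 63 moved by more than 1 SD, under the pseudocounts and median centring alone. Leaving out 1 of 3 libraries cannot move a group mean by more than 1 SD of that group. It cannot change a sign either, since every nup1 library was below every WT library for all members. These counts thus say nothing of leaving out a library, where LOC_Os06g02019 went from -2.29 to -1.34 at stage 10 without WT replicate 2. The count of fixed members more negative at stage 11 under median centring was also chosen after seeing the data. No paired analysis was possible because the values come from no test: the mean of same-numbered differences equals the difference of group means. A difference between low nup1 levels cannot be resolved at an unknown depth.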

Other observations

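Over the members, the deviation of WT replicate 2 of stage 10 went with the WT change between stages. The log2 difference of WT replicate 2 from WT replicate 1 correlated (Pearson's r = 0.64, Spearman's rho = 0.61) with the difference of the WT mean at stage 11 from WT replicate 3 of stage 10, across 165 members. Over all 1450 loci in both tables r was 0.67. With the roles of replicates 2 and 3 exchanged, r was -0.21 over the members. These values are across genes of the same libraries and carry no p.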
